A study of Mus musculus with 30 samples.

Results

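The genes described here are 6 genes of hydrogen peroxide generation in the mouse thyroid: the dual oxidases Duox1 and Duox2, their maturation factors Duoxa1 and Duoxa2, the NADPH oxidase Nox4, and Cyba, which encodes the p22-phox subunit. They were chosen by name as genes of this one step of hormone synthesis and were matched by Ensembl identifier, giving 6 of the 50686 genes counted. Their levels were followed across 30 thyroid libraries in 10 groups of 3.

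Thyroid hormone is made on thyroglobulin at the apical surface of the follicle cell, where a haem peroxidase oxidises iodide and couples iodotyrosines with hydrogen peroxide as the oxidant. The dual oxidases supply that peroxide by passing electrons from cytosolic NADPH across the membrane to oxygen, and calcium binding to their EF-hands switches them on. Each needs its own maturation factor to leave the endoplasmic reticulum in active form, and loss of DUOX2 or DUOXA2 function causes congenital hypothyroidism in humans. NOX4 makes hydrogen peroxide constitutively, is found in many cell types including fibroblasts, and works in complex with p22-phox, the product of Cyba. p22-phox also stabilises the phagocyte oxidase encoded by Cybb, so Cyba is transcribed in macrophages and many other cells.

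Every coordinate is on GRCm38. Duox2 (ENSMUSG00000068452, chr2:122279247-122298165, minus strand), Duoxa2 (ENSMUSG00000027225, chr2:122298900-122302885, plus strand), Duoxa1 (ENSMUSG00000027224, chr2:122302191-122313730, minus strand) and Duox1 (ENSMUSG00000033268, chr2:122315672-122347972, plus strand) lie side by side in 68726 bases. Each oxidase stands head to head with its own factor, Duox2 and Duoxa2 being 734 bases apart and Duoxa1 and Duox1 being 1941 bases apart. The tails of Duoxa2 and Duoxa1 overlap by 695 bases on opposite strands, and 682 exon bases are shared, which is 42.8% of the exon bases of Duoxa2 and 17.1% of those of Duoxa1. The libraries kept the strand but the counting did not use it, so read pairs from this overlap cannot be given to one of the 2 genes, and both are uncertain there. Nox4 (ENSMUSG00000030562) is at chr7:87246096-87398710 on the plus strand and Cyba (ENSMUSG00000006519) at chr8:122424776-122432930 on the minus strand.

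Because the 4 clustered genes did not move together in the comparisons described further on, the 250 bases before each of their RefSeq start sites are shown (GRCm38.p6, 5′ to 3′ on the gene's own strand). All 4 windows lie between the heads of the paired genes, whose RefSeq starts are 672 bases apart for Duox2 and Duoxa2. Capitals mark matches, on either strand, to the TATA box (TATAAA), to the CCAAT box and to the GC box (GGGCGG).
Duox2, chr2:122298228-122298477, minus strand: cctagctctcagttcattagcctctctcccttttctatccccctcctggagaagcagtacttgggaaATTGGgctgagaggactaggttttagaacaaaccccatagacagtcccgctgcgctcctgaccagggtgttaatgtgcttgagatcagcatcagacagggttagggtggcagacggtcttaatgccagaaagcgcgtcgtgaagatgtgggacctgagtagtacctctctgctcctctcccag
Duoxa2, chr2:122298650-122298899, plus strand: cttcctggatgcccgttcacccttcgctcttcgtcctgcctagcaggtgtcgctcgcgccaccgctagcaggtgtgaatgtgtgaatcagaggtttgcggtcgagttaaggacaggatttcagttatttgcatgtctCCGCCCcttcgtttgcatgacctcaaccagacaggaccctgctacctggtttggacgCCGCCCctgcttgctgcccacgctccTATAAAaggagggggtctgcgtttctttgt
Duoxa1, chr2:122313731-122313980, minus strand: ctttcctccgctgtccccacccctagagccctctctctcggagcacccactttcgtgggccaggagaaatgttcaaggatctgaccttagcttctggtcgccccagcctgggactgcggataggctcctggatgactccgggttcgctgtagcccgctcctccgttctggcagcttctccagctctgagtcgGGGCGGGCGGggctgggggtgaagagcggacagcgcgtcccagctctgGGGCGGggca
Duox1, chr2:122315422-122315671, plus strand: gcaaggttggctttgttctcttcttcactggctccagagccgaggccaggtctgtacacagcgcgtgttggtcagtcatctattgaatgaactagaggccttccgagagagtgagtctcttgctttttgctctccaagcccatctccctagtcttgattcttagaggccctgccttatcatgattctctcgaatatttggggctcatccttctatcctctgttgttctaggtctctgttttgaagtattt
Duoxa2 alone of the 4 had TATAAA, starting at position -30 from the first transcribed base, a motif held by 12.4% of 32841 mouse promoter windows of the same length. CCAAT, present in 33.9% of all windows, occurred once before Duox2. GGGCGG, present in 32.7%, occurred 2 times before Duoxa2 and 3 times before Duoxa1, where 2 matches overlap. TCAAGT, part of sites described for the thyroid factor Nkx2-1 and present in 9.81% of all windows, was in none of the 4. Shorter or other forms of those sites were not searched for. CG dinucleotides numbered 15 before Duoxa2 and 16 before Duoxa1, against 6 before Duox2, 5 before Duox1 and a median of 6 over all windows.

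All mice were C57BL/6. The FAD4T set held FAD4T males, wild-type males, FAD4T females and wild-type females, each at 8 and at 2 months of age. The ageing set compared wild-type males at 18 months with further wild-type males at 2 months, which carry numbers 4 to 6. The labels give FAD4T as a genotype and do not say which allele, promoter or line it is. Each group has 3 samples with no litter or dissection day recorded, so p-values cover only the variation among these samples. Totals were 14083958 to 20256049 counts per library.

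Some libraries stood apart by RNA of other tissues. The summed level of 9 thymocyte genes reached 97.2 to 468 CPM (counts scaled to library size by TMM) in 5 FAD4T libraries, against 6.55 to 38.3 CPM in the other 25. These 5 were number 1 of the 8-month males, numbers 2 and 3 of the 2-month males and numbers 1 and 2 of the 2-month females. Number 1 of the 2-month wild-type females was rich in liver RNA, with 3647 CPM of 10 summed liver genes, and leaving it out changed no call of the 6 genes. Liver genes also moved with age in the FAD4T set, at 196 to 627 CPM in all 8-month libraries against 2.51 to 27.5 CPM in the other 2-month libraries. Over the 4 strata 10 of 10 of them passed as higher at 8 months (median log2 fold change 4.38), as did 3 of 9 kidney genes tested (median 3.34, 0 lower) and 7 of 10 thyroid follicle cell genes (median 0.57, 1 lower). These markers moved with the results below that set 8 against 2 months over the strata, and their part in those results was not tested. Summed airway epithelium genes were 133 to 148 CPM in 8-month FAD4T males and 73.5 to 130 CPM in 8-month wild-type males, against 361 to 515 CPM in 8-month FAD4T females and 156 to 553 CPM in 8-month wild-type females, with Scgb1a1 at 0 in 4 libraries. The 2-month wild-type males numbered 4 to 6 differed from those numbered 1 to 3 in 4063 of 18799 genes (21.6%) by the edgeR quasi-likelihood test with Benjamini-Hochberg adjustment, which is the test used throughout at an adjusted p of 0.05. Summed skeletal muscle genes were 20.7 to 52.1 CPM in 8-month FAD4T females, against 546 to 5515 CPM in 8-month wild-type females. Males of that age had 76.5 to 18334 CPM with FAD4T and 716 to 9006 CPM as wild types. The ageing set had 3911 to 26994 CPM at 18 months and 4922 to 37180 CPM at 2 months. Parathyroid genes ran from 123 to 36636 CPM within the 8-month wild-type females alone. The part of muscle or parathyroid RNA in the results below was not tested. In bulk tissue, fewer cells of a type and less RNA per cell cannot be told apart.

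All 6 genes passed the filter on low counts in both fits. Per kilobase of exon not shared with another gene, the median level over the 30 libraries was 111 CPM for Cyba, 66.1 for Duoxa2, 8.17 for Duox2, 2.11 for Duoxa1, 0.623 for Duox1 and 0.534 for Nox4. The Duoxa2 value would be 37.8 if the shared bases were counted in its length. Duox2 and Duoxa2 were thus the more abundant oxidase and factor per length, and Duox1 was thinly counted, with 20 to 118 counts per library against 507 to 1630 for Duox2. Over the libraries, Nox4 varied most, by 7.88-fold between the highest and the lowest library, and Duoxa2 least, by 2.44-fold. Between group means, the highest stood 4.82-fold above the lowest for Duox1, 4.32-fold for Nox4, 2.80-fold for Cyba, 2.47-fold for Duoxa1, 2.10-fold for Duox2 and 1.68-fold for Duoxa2. When the 10 groups were ordered by their means, the libraries of neighbouring groups overlapped in all 9 steps for Duoxa1 and Duoxa2, in 8 of 9 for Duox1, Duox2 and Cyba, and in 7 of 9 for Nox4.

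**Figure D1:**
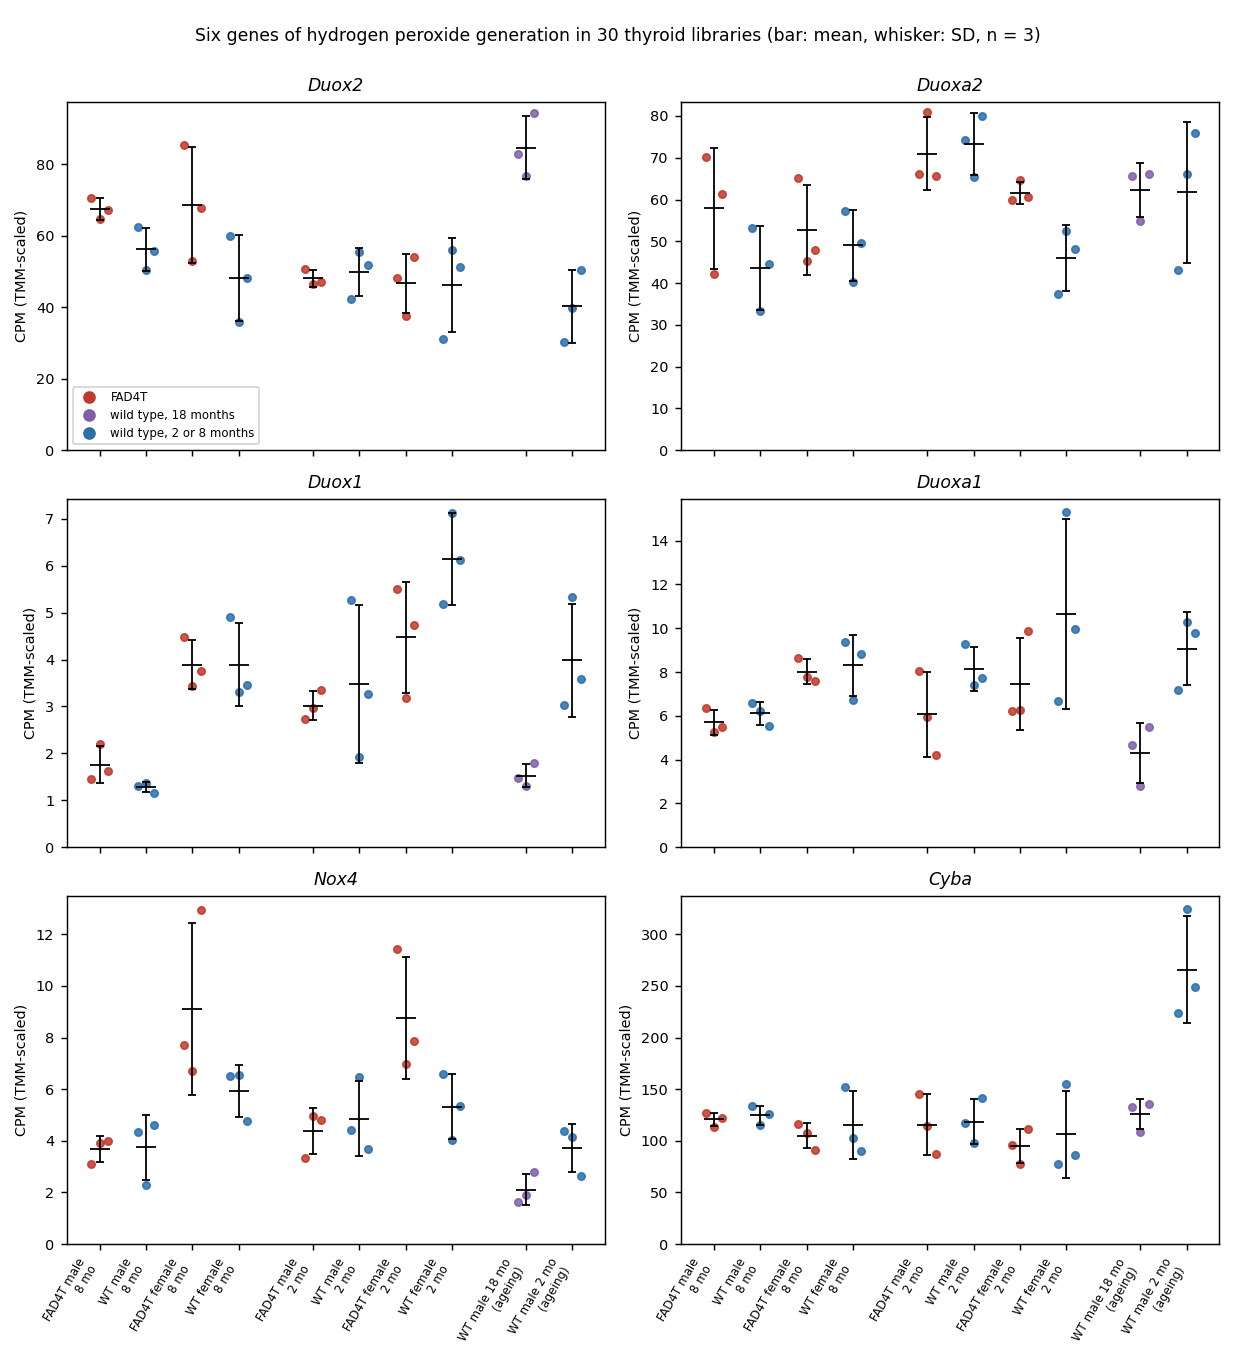
Level of each gene in every library, as TMM-scaled CPM on linear axes from 0, in the 8 groups of the FAD4T set and the 2 of the ageing set. Points are libraries, bars are means and whiskers SD (n = 3). Duox1 is lowest in the older males, Duox2 highest in the 18-month males, Nox4 highest in FAD4T females, and Cyba highest in the 2-month males of the ageing set.

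Sex and age, not the FAD4T genotype, were the comparisons in which these genes passed the test. Duox1 was lower in males than in females and lower at 8 and 18 months than at 2, Duox2 was higher at 8 and 18 months, Duoxa2 was lower at 8 months by a small amount, and Nox4 was lower in males. Without the 5 thymocyte-rich libraries, Duox2 and Duoxa2 at 8 months and Nox4 in males no longer passed (edgeR adjusted p = 0.366, 0.199 and 0.0812). Duoxa1 and Cyba were lower at 18 months than in the 2-month males numbered 4 to 6, but against those numbered 1 to 3 neither passed, nor did Duox1, and the Cyba difference was 0.097. Of the 6 genes, 0 passed in FAD4T against wild type in 2-month males (0% of all genes called), 2-month females (0%, though 3001 genes passed without number 3 of the FAD4T females, which left only the thymocyte-rich numbers 1 and 2), 8-month males (0%), 8-month females (0.0216%) or over the 4 strata together (0%). Unadjusted p was under 0.05 for 0, 2, 1, 1 and 1 of the 6 in these comparisons and for 2679, 3087, 335, 862 and 2855 genes, and DESeq2 called 0 of the 6 in each while calling 98, 287, 0, 74 and 311 genes.

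Between 8 and 2 months, 1 of 6 passed in wild-type males (0.692% of all genes), 0 in wild-type females (0.254%), 0 in FAD4T males (1.57%), 0 in FAD4T females (10.1%) and 3 over the 4 strata together (32.6%). Unadjusted p was under 0.05 for 1, 2 and 1 of the 6 in the comparisons with 0 calls, and DESeq2 called 0, 0 and 1 there. Between males and females, 1 of 6 passed in wild types at 8 months (0.27% of all genes) and 2 over the 4 strata together (1.88%). In the other sex comparisons 0 passed, with 0.0757% of all genes called in wild types at 2 months, 0.0649% in FAD4T mice at 2 months and 0.27% in FAD4T mice at 8 months. Unadjusted p was under 0.05 for 2, 1 and 2 of the 6 there, and DESeq2 called 0, 0 and 2. Between 18 and 2 months 4 of 6 passed, where 35.9% of all genes did. Complete separation of one group's 3 libraries from the other's held for 4.38% to 7.33% of 17036 genes in each direction in FAD4T against wild type within a stratum, for 5.14% to 16.6% in 8 against 2 months, for 3.52% to 12.9% in males against females and for 24.3% to 25.4% in 18 against 2 months. The share of all genes in which 6 libraries of one sex lay apart from 6 of the other was not counted. None of the 4 interactions between genotype and sex or age passed for any of the 6 (0% of all genes in each, 0 of 6 with unadjusted p under 0.05 and 0 by DESeq2).

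**Figure D2:**
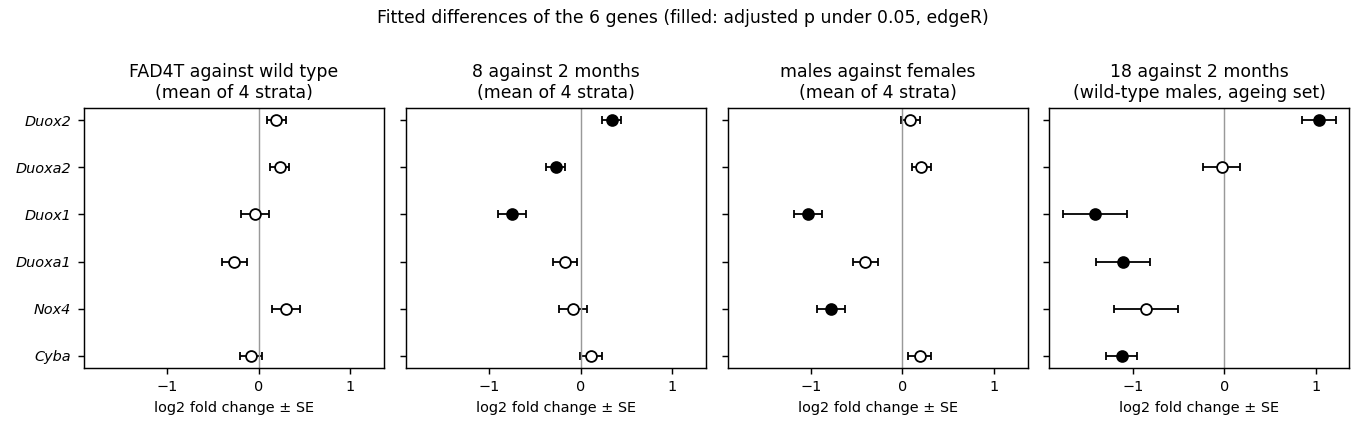
Fitted log2 fold change with its SE for each gene in 4 comparisons, positive where the group named first is higher. Filled points have an adjusted p under 0.05 (edgeR); no point is filled in FAD4T against wild type, and 4 are filled in 18 against 2 months.

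Duox2 encodes the oxidase that dominates in the thyroid. At 8 months it had 70.6, 64.6 and 67.3 CPM in FAD4T males and 62.6, 50.5 and 55.7 CPM in wild-type males. Females of that age had 85.4, 52.9 and 67.7 CPM with FAD4T and 60.1, 36.0 and 48.2 CPM as wild types. The FAD4T males of 8 months lay above their wild-type counterparts without overlap, while the females overlapped. At 2 months it had 50.8, 46.5 and 47.1 CPM in FAD4T males and 42.4, 55.6 and 51.7 CPM in wild-type males. The 2-month females had 48.2, 37.7 and 54.2 CPM with FAD4T and 31.2, 56.1 and 51.2 CPM as wild types, so all 4 groups of that age overlapped. Every 8-month FAD4T male library was above every 2-month FAD4T male library.

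Over the 4 strata Duox2 was higher at 8 than at 2 months, by 0.34 on the log2 scale (SE 0.11, edgeR adjusted p = 0.0210), with a positive difference in all 4 strata: 0.58 in FAD4T females, 0.51 in FAD4T males, 0.18 in wild-type males and 0.08 in wild-type females, the last being -0.14 without the liver-rich library. Without the 5 thymocyte-rich libraries the difference was 0.25 (adjusted p = 0.366). The follicle cell genes had a median of 0.57 in the same comparison. When libraries were scaled by 4 of them, the transcription factor genes Pax8, Nkx2-1, Foxe1 and Hhex, the Duox2 difference was 0.38 (edgeR adjusted p = 0.01995). This scaling moved the median of all genes only from -0.01 to 0.05, so it did not take out the rise of the follicle cell list. The part of follicle cell RNA in the Duox2 value was not tested. Duox2 did not pass in FAD4T against wild type, where the fitted differences were -0.05 in 2-month males, 0.02 in 2-month females (-0.22 without the liver-rich library), 0.28 in 8-month males and 0.52 in 8-month females (unadjusted p = 0.0244, adjusted p = 1). Its difference between males and females over the 4 strata was 0.09 (SE 0.11, edgeR adjusted p = 0.835).

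In the ageing set Duox2 had 82.9, 76.8 and 94.3 CPM at 18 months, against 30.4, 39.8 and 50.5 CPM at 2 months. The groups did not overlap. The log2 fold change was 1.04 (SE 0.18, edgeR adjusted p = 0.00381), and it was 0.78 when the 2-month males numbered 1 to 3 took the place of those numbered 4 to 6 (adjusted p = 0.0201). In this comparison the median log2 fold change of all genes climbed with exon length, being -0.76 for genes under 1000 exon bases and 0.31 for those of 6000 and over, the class of Duox2 with its 6403 exon bases. The part of that trend in the Duox2 value was not tested.

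Duox1, the other dual oxidase, is best known from airway epithelium. At 8 months it had 1.44, 2.21 and 1.62 CPM in FAD4T males and 1.303, 1.36 and 1.16 CPM in wild-type males. Females of that age had 4.48, 3.44 and 3.76 CPM with FAD4T and 4.91, 3.302 and 3.46 CPM as wild types. All 6 male libraries of 8 months were below all 6 female libraries of that age. At 2 months it had 2.74, 2.96 and 3.36 CPM in FAD4T males and 5.26, 1.91 and 3.26 CPM in wild-type males. The 2-month females had 5.51, 3.18 and 4.74 CPM with FAD4T and 5.17, 7.13 and 6.12 CPM as wild types. The sexes overlapped in FAD4T mice and, through one male library at 5.26 CPM, in wild types.

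Duox1 was lower in males than in females over the 4 strata, with a difference of -1.03 on the log2 scale (SE 0.15, edgeR adjusted p = 5.59e-04), and negative in each of them. The largest difference was at 8 months in wild types (-1.62, SE 0.32, edgeR adjusted p = 0.0230), a call that was lost in a fit of those 6 libraries alone (adjusted p = 0.0651), without any 1 of the 3 males and without number 1 or 3 of the females (adjusted p of 0.0569 to 0.167). FAD4T mice of 8 months had -1.14 (adjusted p = 0.170), 2-month wild types -0.81 (0.417) and 2-month FAD4T mice -0.56 (1). The 4-strata difference stayed past the threshold under all 31 alternatives, with a range of -1.29 to -0.96. Of the airway genes, 1 of 10 passed as higher and 0 as lower in males over the strata. Their summed level was higher in females at 8 months, as given above, but not at 2 months, when it was 49.4 to 436 CPM in FAD4T males and 37.6 to 98.7 CPM in wild-type males, against 35.3 to 71.9 CPM in FAD4T females and 43.1 to 91.1 CPM in wild-type females. Their part in the Duox1 difference was not tested.

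Duox1 was also lower at 8 than at 2 months, with a log2 difference of -0.75 over the 4 strata (SE 0.15, edgeR adjusted p = 0.00174), again negative in each. The difference was -1.44 in wild-type males (SE 0.32, adjusted p = 0.0392), -0.76 in FAD4T males (0.129), -0.64 in wild-type females (0.571) and -0.17 in FAD4T females (0.701). The wild-type male value rested on the library at 5.26 CPM, without which it was -1.01 (adjusted p = 0.244). In a fit of those 6 libraries alone it was -1.46 and did not pass (0.0847), and the call was also lost without number 3 of the 2-month males (0.102) or any 1 of the 8-month males (0.113 to 0.149). The 4-strata value stayed past the threshold under all 31 alternatives, from -0.82 to -0.63. FAD4T against wild type gave -0.20 in 2-month males, -0.46 in 2-month females, 0.48 in 8-month males and 0.0050 in 8-month females, and -0.04 overall (SE 0.15, adjusted p = 0.909).

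The 18-month males of the ageing set had Duox1 at 1.48, 1.31 and 1.79 CPM, against 3.03, 5.33 and 3.60 CPM at 2 months, with no overlap. The log2 fold change was -1.41 (SE 0.35, edgeR adjusted p = 0.0138). It was -1.18 against the 2-month males numbered 1 to 3 (adjusted p = 0.115) and -1.12 without number 5 of the 2-month males (0.0652). Genes of 3000 to under 6000 exon bases, the class of Duox1, had a median of 0.04.

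Since a ratio of 2 genes within a library does not depend on how the library was scaled, the balance of the oxidases was compared directly. The log2 ratio of Duox1 over Duox2 counts per kilobase averaged -4.32 at 8 months and -3.27 at 2 months, a difference of -1.06 (exact stratified permutation test, two-sided, p = 1.25e-05, the smallest that 160000 assignments can give, and 1.5e-04 after adjustment over 12 ratio tests). It averaged -4.37 in males and -3.21 in females, a difference of -1.16 (exact p = 2.5e-05, adjusted 1.5e-04). Both differences had the same sign in 4 of 4 strata. It averaged -3.91 in FAD4T and -3.68 in wild-type mice (exact p = 0.182, adjusted 0.243). In linear terms Duox2 stood 31.6-fold above Duox1 in 8-month FAD4T males, 35.5-fold in 8-month wild-type males, 14.2-fold in 8-month FAD4T females and 10.03-fold in 8-month wild-type females. At 2 months the geometric means were 13.0 in FAD4T males, 12.6 in wild-type males, 8.65 in FAD4T females and 6.02 in wild-type females.

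At 18 months the same ratio of Duox2 over Duox1 was 45.0, with libraries at 42.6 to 47.2, against 8.30 in the 2-month males of the ageing set, with libraries at 6.09 to 11.5. The log2 difference of Duox1 over Duox2 was -2.44 (exact permutation p = 0.1, which is the smallest that 3 libraries against 3 allow). The shift came from both genes, Duox1 being lower and Duox2 higher at 18 months. Genes of the exon length classes of Duox1 and Duox2 had medians of 0.04 and 0.31 in this comparison. The part of exon length in the ratio was not tested.

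**Figure D3:**
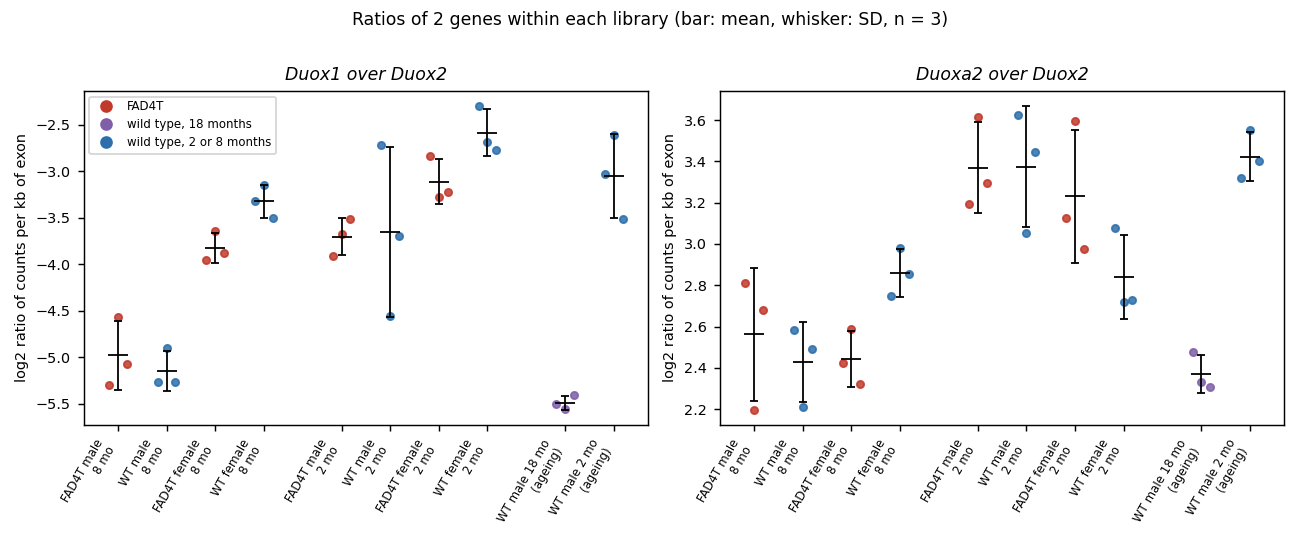
Log2 ratio of counts per kilobase in every library for Duox1 over Duox2 and for Duoxa2 over Duox2, with group means and SD (n = 3). Duox1 over Duox2 is lowest at 18 months, about -5.49, and in 8-month males; Duoxa2 over Duox2 is about 2.37 at 18 months and 3.42 at 2 months of the ageing set.

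Duoxa2, the maturation factor of Duox2, stood above its partner per kilobase of exon in all 30 libraries. At 8 months it had 70.3, 42.1 and 61.3 CPM in FAD4T males and 53.2, 33.3 and 44.6 CPM in wild-type males. Females of that age had 65.1, 45.2 and 48.0 CPM with FAD4T and 57.3, 40.4 and 49.5 CPM as wild types. All 4 groups of 8 months overlapped. At 2 months it had 66.1, 81.0 and 65.7 CPM in FAD4T males and 74.3, 65.5 and 80.0 CPM in wild-type males. The 2-month females had 59.8, 64.7 and 60.5 CPM with FAD4T and 37.3, 52.5 and 48.3 CPM as wild types. Males were above females without overlap in both genotypes at 2 months, and FAD4T females were above wild-type females.

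Over the 4 strata Duoxa2 was lower at 8 than at 2 months, with a log2 difference of -0.27 (SE 0.10, edgeR adjusted p = 0.0432). This call was lost under 18 of 31 alternatives, with values from -0.32 to -0.22. Of 24 fits with 1 library left out, 8 kept it: those without number 1 of any 8-month group, of the 2-month FAD4T males or of the 2-month wild-type females, without number 2 of the 2-month wild-type males, or without number 3 of the 2-month FAD4T females. Within the strata the differences were -0.74 in wild-type males, -0.27 in FAD4T males, -0.20 in FAD4T females and 0.11 in wild-type females, the last being -0.018 without the liver-rich library. Its FAD4T differences did not pass, at -0.04 in 2-month males, 0.42 in 2-month females, 0.43 in 8-month males, 0.11 in 8-month females and 0.23 overall (SE 0.10, unadjusted p = 0.0335, edgeR adjusted p = 0.296). In the ageing set it had 65.7, 54.8 and 66.2 CPM at 18 months and 43.1, 66.2 and 75.9 CPM at 2 months, which overlapped (log2 fold change -0.03, SE 0.20, edgeR adjusted p = 0.932).

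Set against its oxidase, Duoxa2 was lower at 8 months: the log2 ratio of Duoxa2 over Duox2 averaged 2.57 at 8 months and 3.20 at 2 months, a difference of -0.63 (exact stratified permutation p = 1.88e-04, adjusted 7.5e-04), with the same sign in 3 of 4 strata. In wild-type females the ratio was 7.26 at 8 months and 7.16 at 2 months. It averaged 2.37 at 18 months and 3.42 at 2 months in the ageing set, without overlap (exact p = 0.1, the smallest possible). In that comparison genes of 1500 to under 3000 exon bases, the class of Duoxa2, had a median of -0.33. Genes of 6000 and over, the class of Duox2, had 0.31. The part of exon length in the ratio was not tested. Males and females differed in the log2 ratio by 0.09 (exact p = 0.456), and FAD4T and wild type by 0.03 (exact p = 0.820).

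Duoxa1, the factor of Duox1, was the less abundant of the factors. At 8 months it had 6.35, 5.27 and 5.48 CPM in FAD4T males and 6.58, 6.23 and 5.55 CPM in wild-type males. Females of that age had 8.66, 7.77 and 7.59 CPM with FAD4T and 9.37, 6.74 and 8.82 CPM as wild types. All 6 male libraries of 8 months were below all 6 female libraries, the nearest being at 6.58 and 6.74 CPM. At 2 months it had 8.06, 5.93 and 4.195 CPM in FAD4T males and 9.29, 7.39 and 7.74 CPM in wild-type males. The 2-month females had 6.24, 6.25 and 9.88 CPM with FAD4T and 6.69, 15.3 and 9.98 CPM as wild types, and groups of that age overlapped between genotypes and between sexes.

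The sex difference of Duoxa1 over the strata was -0.41 (SE 0.14, unadjusted p = 0.00729) and did not pass (edgeR adjusted p = 0.161). It passed when libraries were scaled by 4 follicle-cell transcription factor genes in place of TMM (-0.66, adjusted p = 0.00581), a scaling that moved the median of all genes by -0.26 in that comparison. Its difference between 8 and 2 months was -0.17 (SE 0.14, adjusted p = 0.348) and between FAD4T and wild type -0.27 (SE 0.14, adjusted p = 0.345). In the ageing set it had 4.65, 2.80 and 5.49 CPM at 18 months, against 7.17, 10.3 and 9.77 CPM at 2 months, without overlap. The log2 fold change was -1.11 (SE 0.29, edgeR adjusted p = 0.0184). It was -0.90 against the 2-month males numbered 1 to 3 (adjusted p = 0.0917), and the call was also lost without number 5 (0.0791) or 6 (0.0624) of the 2-month males or number 2 of the 18-month males (0.0531).

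Against its oxidase, Duoxa1 was higher at 8 months, whereas Duoxa2 was lower. The log2 ratio of Duoxa1 over Duox1 averaged 2.20 at 8 months and 1.61 at 2 months (exact stratified permutation p = 0.00170, adjusted 0.00426), and 2.23 in males and 1.57 in females (exact p = 0.00178, adjusted 0.00426), each with the same sign in 4 of 4 strata. Without the 5 thymocyte-rich libraries the age difference fell to 0.30, against 0.58 with them (adjusted p = 0.151). FAD4T mice averaged 1.78 and wild types 2.02 (exact p = 0.151). At 18 months it averaged 2.11 and at 2 months of the ageing set 1.88 (exact p = 0.3).

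Nox4 was the one gene of the 6 with its 2 highest group means in FAD4T females. At 8 months it had 3.12, 3.93 and 4.01 CPM in FAD4T males and 4.33, 2.30 and 4.63 CPM in wild-type males. Females of that age had 7.71, 6.69 and 12.9 CPM with FAD4T and 6.49, 6.54 and 4.77 CPM as wild types. Every male library of 8 months was below every female library of that age, the nearest being at 4.63 and 4.77 CPM, and FAD4T females were above wild-type females. At 2 months it had 3.35, 4.98 and 4.81 CPM in FAD4T males and 4.42, 6.47 and 3.67 CPM in wild-type males. The 2-month females had 11.4, 6.97 and 7.86 CPM with FAD4T and 6.57, 4.05 and 5.33 CPM as wild types. FAD4T males were below FAD4T females, and FAD4T females were above wild-type females, with no overlap.

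Over the 4 strata Nox4 was lower in males than in females, with a log2 difference of -0.78 (SE 0.15, edgeR adjusted p = 0.00856). The differences were -1.30 in 8-month FAD4T mice (adjusted p = 0.0881), -0.99 in 2-month FAD4T mice (0.682), -0.67 in 8-month wild types (0.926) and -0.13 in 2-month wild types (1), the last being 0.043 without the liver-rich library. Without the 5 thymocyte-rich libraries the value was -0.81 and the adjusted p was 0.0812. Of 8 fibroblast genes, 4 passed as lower and 0 as higher in males, with a list median of -0.53 beside -0.0016 for all genes and no gene of the list at 0 in any library. Their summed level at 8 months was 499 to 587 CPM in FAD4T males and 396 to 637 CPM in wild-type males, against 868 to 1012 CPM in FAD4T females and 703 to 1093 CPM in wild-type females. At 2 months the sexes overlapped in that level, with 597 to 843 CPM in FAD4T males and 727 to 838 CPM in wild-type males, against 752 to 1014 CPM in FAD4T females and 784 to 822 CPM in wild-type females. Their part in the Nox4 difference was not tested.

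The FAD4T difference of Nox4 was 0.72 in 2-month females (SE 0.30, unadjusted p = 0.0274, edgeR adjusted p = 0.254) and 0.63 in 8-month females (SE 0.30, unadjusted p = 0.0516, adjusted p = 1), against -0.14 in 2-month males and -0.0048 in 8-month males. None passed, and neither did the male minus female difference of the FAD4T effect, which was -0.86 at 2 months (SE 0.43, unadjusted p = 0.0594, adjusted p = 1) and -0.63 at 8 months (SE 0.43, unadjusted p = 0.159, adjusted p = 1). The fibroblast list had 0 of 8 genes called in either female comparison, with medians of 0.03 at 2 months and 0.07 at 8 months. Of all genes 0% and 0.0216% were called there, so that count cannot set the list apart. The part of fibroblast RNA in these Nox4 values was not tested. Between 8 and 2 months Nox4 gave -0.08 (SE 0.15, adjusted p = 0.719).

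Nox4 had 1.64, 1.904 and 2.78 CPM at 18 months and 4.37, 4.16 and 2.65 CPM at 2 months in the ageing set. One 18-month library lay above one 2-month library. The log2 fold change of -0.86 (SE 0.35, unadjusted p = 0.0367) did not pass (edgeR adjusted p = 0.0857). In an alternative chosen after the data were seen, with the mean of both 2-month male groups as the baseline in a fit of all 30 libraries, it was -1.01 and passed (adjusted p = 0.0130). In that fit Cyba, described next, lost its call.

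Cyba stayed within a narrow range in the FAD4T set. At 8 months it had 127, 114 and 122 CPM in FAD4T males and 133, 115 and 126 CPM in wild-type males. Females of that age had 116, 108 and 91.6 CPM with FAD4T and 153, 103 and 90.2 CPM as wild types. The males and females of 8 months overlapped. At 2 months it had 146, 114 and 86.8 CPM in FAD4T males and 117, 97.7 and 142 CPM in wild-type males. The 2-month females had 96.2, 77.7 and 111 CPM with FAD4T and 77.9, 155 and 86.2 CPM as wild types. All FAD4T groups overlapped their wild-type counterparts. Over the strata the log2 differences were -0.09 for FAD4T against wild type (SE 0.12, edgeR adjusted p = 0.737), 0.12 for 8 against 2 months (SE 0.12, 0.474) and 0.19 for males against females (SE 0.12, 0.569). That of males against females was -0.060 under the follicle-cell scaling, where the sex difference of Duoxa2 was -0.048 in place of 0.21.

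In the ageing set Cyba had 133, 109 and 135 CPM at 18 months, against 224, 324 and 249 CPM at 2 months, without overlap. The log2 fold change was -1.12 (SE 0.17, edgeR adjusted p = 0.00210). The 18-month level was close to that of the FAD4T set, and the 2-month males numbered 4 to 6 were the ones that stood apart, by 1.16 against the 2-month wild-type males numbered 1 to 3 (SE 0.23, edgeR adjusted p = 0.00111). With numbers 1 to 3 as the baseline the 18-month difference was 0.097 (adjusted p = 0.765), so its direction depends on which 2-month males are used. Against the mean of both sets, in the fit of all 30 libraries, it was -0.50 (adjusted p = 0.0774). Cyba has 1039 exon bases, and genes of 1000 to under 1500 exon bases had a median of -0.60 at 18 against 2 months and 0.35 in the 2-month males numbered 4 to 6 against 1 to 3. Phagocyte genes, summed over 10, were 224 to 326 CPM at 18 months, 110 to 235 CPM in 2-month males 4 to 6 and 143 to 203 CPM in 2-month males 1 to 3. Adipocyte genes, summed over 10, were 288 to 717 CPM at 18 months, 2505 to 3043 CPM in 2-month males 4 to 6 and 872 to 1292 CPM in 2-month males 1 to 3. The part of adipocyte RNA or exon length in the Cyba value was not tested.

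**Figure D4:**
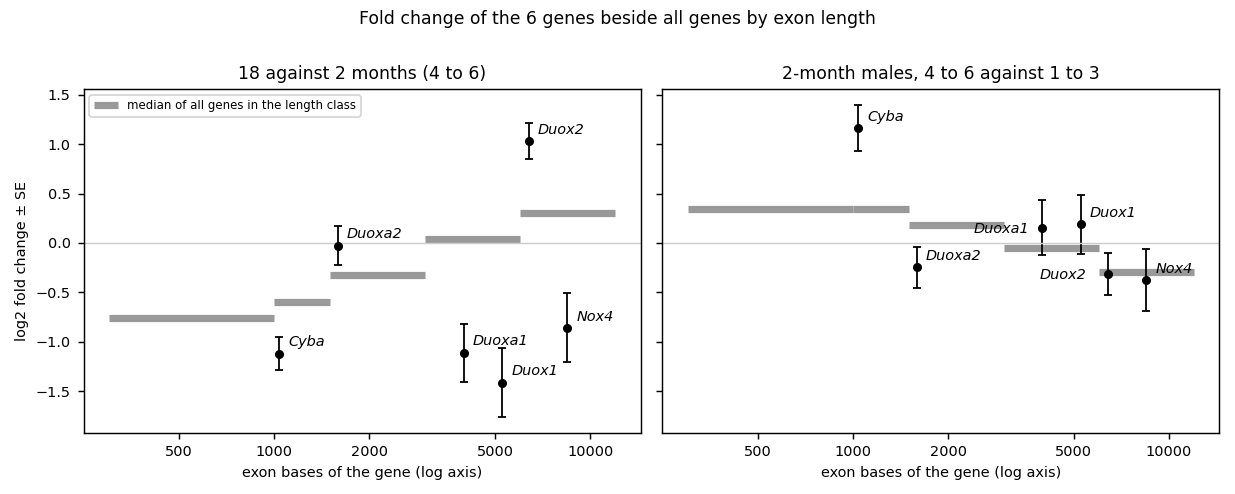
Log2 fold change with SE of the 6 genes against their exon bases (log axis), with grey bars for the median of all genes in each of 5 length classes. Left, 18 against 2 months, where the medians climb from -0.76 to 0.31; right, 2-month males 4 to 6 against 1 to 3, where they descend from 0.34 to -0.30. Cyba lies at -1.12 on the left and 1.16 on the right. Cyba, Duox1, Duoxa1 and Nox4 lie below their length classes on the left.

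Of the other catalytic NADPH oxidase subunits, Nox1 and Nox3 were sparse. Over the 30 libraries Nox3 was at 0 in 26 and Nox1 was at most 1.23 CPM. Cybb, the phagocyte oxidase, ran from 5.09 to 16.2 CPM, beside 1.16 to 7.13 CPM for Duox1 and 1.64 to 12.9 CPM for Nox4. Of 15 further oxidase subunit and regulator genes, 14 were tested in the FAD4T set and 12 in the ageing set. FAD4T against wild type over the strata called 0 of them, 0 of 14 genes of peroxide removal and 0 of 8 genes of NADPH supply. Males against females called 1 gene, Gpx3, the secreted glutathione peroxidase, at -0.61 (SE 0.10, edgeR adjusted p = 0.00105). Under the follicle-cell scaling 1 of 14, 3 of 14 and 5 of 8 genes of the lists passed as lower in males and 0 as higher. All genes leaned the same way under that scaling, with far more passing as lower than as higher, as counted further below.

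Of 14 genes that remove hydrogen peroxide, 7 passed as higher at 8 than at 2 months and 0 as lower, where 15.8% of all genes passed as higher and 16.8% as lower. The list median was 0.33 beside -0.01 for all genes. The liver and follicle cell genes, at medians of 4.38 and 0.57, moved the same way, and their part was not tested. Gpx3 rose by 0.58 (SE 0.10, edgeR adjusted p = 4.11e-04), Cat, catalase, by 0.46 (SE 0.09, 9.69e-04), the mitochondrial peroxiredoxin Prdx3 by 0.50 (SE 0.11, 0.00380) and the thioredoxin reductase Txnrd1 by 0.44 (SE 0.11, 0.00694). Of the other oxidase genes 3 passed as higher and 4 as lower, among them Rac1, a GTPase of oxidase assembly, at 0.52 (SE 0.13, 0.00617) and Nrros, a negative regulator of Cybb, at -0.75 (SE 0.14, 9.58e-04). NADPH supply had 2 higher and 2 lower of 8. Without the 5 thymocyte-rich libraries these counts were 2 and 0 of 14 for removal, 0 and 0 of 14 for the oxidase genes and 0 and 0 of 8 for NADPH supply. Fewer of all genes passed without those libraries as well, as counted further below. In FAD4T females alone Nrros (-1.11), Sh3pxd2b (0.59), Cybc1 (-0.43) and Cat (0.55) passed, where 4.15% of all genes passed as higher and 5.98% as lower. Without the 5 thymocyte-rich libraries no gene passed in that comparison.

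At 18 against 2 months in the ageing set, 0 of the 14 removal genes passed as higher and 11 as lower, where 17.1% of all genes passed as higher and 18.8% as lower. The list median was -0.99 beside -0.01 for all genes, -0.76 for genes under 1000 exon bases and -0.60 for those of 1000 to under 1500. Of 10 adipocyte genes 7 passed as lower and 0 as higher (median -2.32). The part of exon length and of adipocyte RNA in these counts was not tested. Prdx4 of the endoplasmic reticulum changed by -1.16 (SE 0.14, edgeR adjusted p = 0.00123), Gpx1 by -1.10 (SE 0.13, 0.00124), Gpx3 by -1.08 (SE 0.15, 0.00168) and Prdx5 by -1.15 (SE 0.17, 0.00210). With the 2-month males numbered 1 to 3 as baseline, 0 passed as higher and 1 as lower, and the median was -0.23. Fewer of all genes passed with that baseline too, as counted further below. Between the 2 sets of 2-month males, 7 of the 14 were higher in numbers 4 to 6, as were 1910 of all 18799 genes. Of the NADPH supply genes Nnt, the mitochondrial transhydrogenase, passed as higher (1.22, SE 0.12, 9.69e-04) and Taldo1, of the pentose phosphate pathway, as lower (-1.02, SE 0.13, 0.00134), with 1 higher and 2 lower of 8. The other oxidase genes had 2 higher and 1 lower of 12.

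The 6 genes were related to each other over libraries in 15 pairs, on log2(CPM + 1). Duox1 and Duoxa1 varied together over the 30 libraries (Pearson r = 0.71, Spearman rho = 0.72, permutation p of 3e-04 for each after Benjamini-Hochberg adjustment over 15 pairs, and r = 0.66 without the 2 farthest libraries). As deviations from group means their r was 0.41 (permutation p = 0.0288, adjusted 0.0617). Duox2 and Duoxa2 had an r of 0.25 over the 30 libraries (rho 0.11, permutation p = 0.175, adjusted 0.267, r = 0.15 without the 2 farthest), but 0.68 as deviations from group means (permutation p = 3.3e-04, adjusted 0.00458). Such deviations were also related across partners, for Duox2 and Duoxa1 (r = 0.64, adjusted permutation p = 0.0089, against an r of -0.26 over the libraries) and for Duoxa1 and Duoxa2 (r = 0.52, adjusted 0.00922, against 0.06). Duox1 and Duox2 had an r of -0.43 over the libraries (rho -0.37, adjusted permutation p = 0.0877 and 0.159, r = -0.49 without the 2 farthest), and 0.30 as deviations (adjusted 0.283). Duox1 and Nox4 had an r of 0.54 (rho 0.54, adjusted permutation p = 0.0143 for each, r = 0.63 without the 2 farthest), and -0.01 as deviations (adjusted 0.983), so that this relation held between groups and not within them. For Cyba, whose 3 highest libraries stand apart, Pearson r over the libraries is not given. By rank it ran against Nox4 over the libraries (Spearman rho = -0.58, adjusted permutation p = 0.0070). As deviations from group means that pair did not pass (r = -0.25, adjusted permutation p = 0.288). Deviations of Cyba were related to those of Duoxa1 (r = 0.77, adjusted permutation p = 0.00458) and Duoxa2 (r = 0.49, adjusted 0.0371).

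Among 11487 named genes of at least 5 CPM, those most like each of the 6 over the 30 libraries were taken by Pearson r, as a description of libraries that share tissue make-up and scaling. Duox1 was followed by Pla2g4f (r = 0.829), Socs2 (0.825) and Prickle1 (0.792). Duox2 was followed by Map1b (0.890), Dapk1 (0.872) and Mtor (0.857). Duoxa1 was followed by Angptl2 (0.825), Cpxm2 (0.819) and Mxra7 (0.771), and Duoxa2 by Hlx (0.775), Erbb2 (0.677) and Usp43 (0.660). Nox4 was followed by the extracellular matrix genes Ogn (0.842) and Fbln5 (0.802) and by Dact1 (0.780). Cyba was followed by Tex264 (0.949), Tapbp (0.948) and the tetraspanin Cd63 (0.943).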

How the data were processed

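The deposited files held raw counts of read pairs per gene, made by the authors with featureCounts 1.6.0 on exons of Ensembl release 88 (GRCm38), without a strand option and from STAR-named alignments, per the file headers. The submitters' processing notes instead name cutadapt 1.9, HISAT2 2.0.4, StringTie 1.3.4d and GRCm39. Libraries were poly(A)-selected, dUTP-stranded and paired-end, per the labels' protocols.

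Here 24 libraries of the FAD4T set (18493 genes, 16 residual degrees of freedom) and the 6 of the ageing set (16283 genes, 4 degrees of freedom) were fitted apart with edgeR 4.0.16 in R 4.3.3: TMM, filterByExpr with a minimum count of 10, robust glmQLFit, glmQLFTest, a prior count of 0.125 and Benjamini-Hochberg adjustment over all genes at 0.05. The SE is the size of the log2 fold change over the square root of F. Printed CPM were scaled by TMM over all 30 libraries. Ratios used 0.5 added to each count and exon bases not shared with another gene, and permuted labels within strata. Correlations used 100000 permutations. The p-values of ageing ratios cannot go below 0.1. The code was tested on simulated data.

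The genes and lists were chosen with earlier results of these data known. The text names all 6 genes, up to 6 genes of the pathway lists that passed in a comparison, by smallest p, and the 3 genes most like each of the 6. The summed marker levels use lists of up to 10 genes per cell type. Alternatives were DESeq2 1.42.0, its size factors, no filter, other library sets, scaling by Pax8, Nkx2-1, Foxe1 and Hhex, a replicate block, and leaving out each library. Promoter windows came from RefSeq tables of GRCm38.p6, in which all 6 genes had an entry.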

Additional observations from a re-analysis of the deposited data

How the results depend on the processing

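Of the differences over all strata, those of Duox1 with age and with sex passed under every alternative run. Over single comparisons, the number of the 6 genes called moved as follows. In wild-type males at 8 against 2 months it was 1 and became 2 with DESeq2, and 0 with no filter, with follicle-cell factor scaling and with the replicate block, under which Duox1 was -1.40 (adjusted p = 0.0578). With the compared groups alone it stayed 1, but of Duoxa2 (adjusted p = 0.0312) in place of Duox1 (0.0847). Leaving out 1 library gave 0 to 1. In FAD4T females at 8 against 2 months it was 0 and became 1 with DESeq2, and leaving out 1 library gave 0 to 1. Without the 5 thymocyte-rich libraries it was 1 in place of 3 for 8 against 2 months over the strata, and 1 in place of 2 for males against females. In wild types of 8 months, males against females, it was 1 and became 0 in a fit of the compared groups alone, and leaving out 1 library gave 0 to 1. In FAD4T mice of 8 months, males against females, it was 0 and became 2 with DESeq2 and with follicle-cell scaling. At 18 against 2 months it was 4, became 2 with follicle-cell scaling and 1 with the 2-month males numbered 1 to 3, and leaving out 1 library gave 2 to 4.

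Over the 6 genes and 20 comparisons, 65 fitted differences were larger than their SE, and 5 of these turned sign under an alternative. Those turns were for Duoxa1 in 2-month males, FAD4T against wild type, without the thymocyte-rich libraries (0.0046), for Duoxa1 in wild-type females at 8 against 2 months without number 2 of the 2-month group (0.024, in a range from -0.58 with 1 library left out), for Duoxa2 (-0.048) and Cyba (-0.060) in males against females over the strata under follicle-cell scaling, and for Cyba at 18 against 2 months with numbers 1 to 3 (0.097). Of the 55 differences within their SE, 49 turned sign under an alternative, so no direction can be read from them. Without the liver-rich library alone the sign turned for Duox2, Duoxa2 and Cyba in wild-type females at 8 against 2 months (-0.14, -0.018 and -0.044), for Duox2, Nox4 and Cyba in 2-month wild types, males against females (-0.11, 0.043 and -0.020), and for Duox2 in 2-month females, FAD4T against wild type (-0.22). The causes were not tested. The log2 ratio of Duoxa1 over Duox1 at 8 against 2 months was 0.30 without the thymocyte-rich libraries and no longer passed. The FAD4T difference of Duoxa2 over Duox2 was -0.11 without them and -0.020 to 0.071 with 1 library left out, and that of Duox1 over Duox2 was -0.34 to -0.11 with 1 library left out, passing at -0.34 without number 2 of the 2-month wild-type males. Follicle-cell scaling moved the median of all genes by -0.42 to 0.25.

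The number of all genes called also moved. At 8 against 2 months it was 128 in wild-type males (474 with DESeq2, 78 with no filter, 73 with follicle-cell scaling, 455 with the compared groups alone, 30 to 55 with 1 library left out), 47 in wild-type females (261 with DESeq2, 31 with follicle-cell scaling, 1 with the groups alone, 10 to 211 with 1 library left out), 291 in FAD4T males (1716 with DESeq2, 165 with no filter, 74 with follicle-cell scaling, 166 with the block, 0 without the thymocyte-rich libraries, 12 to 3918 with 1 library left out) and 1874 in FAD4T females (3625 with DESeq2, 912 with no filter, 290 with follicle-cell scaling, 62 with the groups alone, 0 without those libraries, 4 to 6703 with 1 library left out). The most came without number 1 of the 2-month FAD4T males and number 3 of the 2-month FAD4T females. These were the only libraries of their groups that were not thymocyte-rich. Over the strata the number of genes called was 6027 (3760 with follicle-cell scaling, 671 without the thymocyte-rich libraries, 4598 to 8126 with 1 library left out). For males against females over the strata, 137 were higher and 211 lower (713 in all with DESeq2, 62 higher and 2644 lower with follicle-cell scaling, 134 in all without those libraries, 215 to 397 with 1 library left out). Within the sex strata, 14, 50, 12 and 50 genes became 273, 96, 46 and 311 with DESeq2, and 6 to 252, 23 to 84, 7 to 14 and 28 to 39 with 1 library left out. At 18 against 2 months, 2782 were higher and 3058 lower (3250 and 1201 with follicle-cell scaling, 859 in all with numbers 1 to 3, 3651 to 5470 with 1 library left out). FAD4T against wild type over the strata gave 0 genes, and 0 to 1300 with 1 library left out, the most being without number 3 of the 2-month FAD4T females. In 2-month females alone it gave 0 genes, and 0 to 3001 with 1 library left out, the most again without that library. Replicate numbers showed no pairing of the samples, by correlations of deviations from group means between libraries of different groups. Same-numbered libraries ran from -0.52 to 0.56 (median 0.05), and libraries of different number had a median of -0.03. The block changed no other call of the 6 genes. No paired analysis was possible for the ageing set because its groups share no replicate numbers. Depth limits Duox1 most, at 20 to 118 counts.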
